A study of Mus musculus with 84 samples.

Results

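The comparison described here is that of MLL-ENL with control mice in pre-granulocyte-monocyte progenitors (pGM) at 10 weeks of age. Its members were chosen by their labels and are 8 of the 84 libraries of the series, with 4 MLL-ENL libraries (numbers 73, 74, 78 and 81) and 4 controls (76, 80, 87 and 88). All 41388 mouse genes of the count table entered, of which 22415 had a count in these 8 libraries. MLL-ENL mice carry a tetracycline-regulated transgene that joins human KMT2A to human MLLT1. The controls are labelled wild type. Both groups were sorted from bone marrow, received no doxycycline and carry the note fetal induction. The sources used here do not give what drives the regulator of the transgene, whether controls carry that regulator or how many mice gave each library. The pGM of other groups served for comparison: newborn liver (P0; 4 MLL-ENL and 3 control libraries, same induction) and a separate set of 10 week marrow labelled MLL-ENL (x2), with 3 libraries and 4 controls of its own. HPC, labelled as committed progenitors, came from the same 10 week set with the same numbers. All of these libraries used for comparison are likewise labelled as without doxycycline.

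KMT2A (MLL) is a histone methyltransferase that binds chromatin at active promoters, and MLLT1 (ENL) belongs to the machinery that releases paused RNA polymerase for elongation. Fusions of both occur in acute leukemia, where they are known to keep Hoxa genes, Meis1 and other stem cell genes switched on. The pGM are progenitors upstream of granulocyte-monocyte progenitors and give rise mainly to neutrophils and monocytes.

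Few genes differed, and 5 did so with and without the library labelled 73 pGM, whose place in the group is in doubt. C1qtnf6 and Klhl4 were lower in MLL-ENL pGM, and Ehd3, Il9r and Sva were higher. For C1qtnf6, Klhl4, Ehd3 and Il9r the 250 bases before the RefSeq start are shown on the gene's own strand, 5′ to 3′, because these genes carry the comparison in both directions. They come from RefSeq on GRCm38.p6, which may not be the build of the counts, and capitals mark the matches to the motifs named after them.
C1qtnf6, chr15:78529652-78529901, minus strand: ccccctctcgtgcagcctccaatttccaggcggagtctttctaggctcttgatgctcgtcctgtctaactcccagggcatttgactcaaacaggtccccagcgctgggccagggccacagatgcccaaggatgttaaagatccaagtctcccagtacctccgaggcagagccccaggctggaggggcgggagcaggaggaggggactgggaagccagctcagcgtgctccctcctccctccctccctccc
Klhl4, chrX:114474083-114474332, plus strand: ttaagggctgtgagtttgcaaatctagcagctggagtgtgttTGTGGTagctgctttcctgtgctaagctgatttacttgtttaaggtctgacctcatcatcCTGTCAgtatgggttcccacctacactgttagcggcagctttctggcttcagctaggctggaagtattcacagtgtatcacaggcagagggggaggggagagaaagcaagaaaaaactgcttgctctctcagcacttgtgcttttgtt
Ehd3, chr17:73804591-73804840, plus strand: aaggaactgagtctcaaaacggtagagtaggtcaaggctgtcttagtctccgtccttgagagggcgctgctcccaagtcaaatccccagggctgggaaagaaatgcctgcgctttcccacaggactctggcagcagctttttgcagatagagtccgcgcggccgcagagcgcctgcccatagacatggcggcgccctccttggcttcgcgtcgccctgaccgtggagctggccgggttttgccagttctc
Il9r, chr11:32200280-32200529, minus strand: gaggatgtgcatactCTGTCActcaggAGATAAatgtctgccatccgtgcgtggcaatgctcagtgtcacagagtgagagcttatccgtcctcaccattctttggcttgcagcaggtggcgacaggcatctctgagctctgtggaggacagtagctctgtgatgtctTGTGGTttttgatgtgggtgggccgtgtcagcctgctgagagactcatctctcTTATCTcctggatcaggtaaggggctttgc

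These 4 windows differed in base composition, with 7 CpG in C1qtnf6, 1 in Klhl4, 16 in Ehd3 and 5 in Il9r. Of all 32851 such windows, 46.3%, 92.1%, 25.4% and 55.6% held at least as many. The motifs searched on both strands were TGATTTAT for HOX with MEIS, held by 0.8% of all windows, TGACAG for MEIS, held by 15.9%, TGTGGT for RUNX, held by 14%, and AGATAA for GATA, held by 10.0%. The window of Klhl4 held 1 MEIS and 1 RUNX match, and that of Il9r 1 MEIS, 1 RUNX and 2 GATA matches. None of the 4 motifs was found in the windows of C1qtnf6 and Ehd3, and no matches overlapped. The bases just after the RefSeq start were found in a GENCODE transcript of the gene for Klhl4, Ehd3 and Il9r, and not for C1qtnf6.

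The 8 libraries held 11.29 to 20.79 M counts on mouse genes and 16779 to 18159 genes with a count. Levels below are counts per M mouse counts (CPM) after TMM scaling unless stated otherwise, and changes are log2 fold changes ± SE of MLL-ENL over control from edgeR. A gene is called when its Benjamini-Hochberg adjusted p is under 0.05 over all genes tested. Lack of overlap between the groups was a rule by which called genes were named, so it adds no support to those calls. The share of all genes without overlap is not given here. Male (Ddx3y) and female (Xist) transcripts marked 2 libraries each in both genotypes. In MLL-ENL these were 73 and 74 with Ddx3y and 78 and 81 with Xist, so the balance does not hold without 73. Nothing in the labels says whether libraries came from separate animals, so p-values measure spread between libraries. For the comparison with all 8, that spread was estimated in a fit of 47 libraries. These included other populations and newborn groups, so it is not the spread of the 8 libraries alone. In bulk RNA, fewer cells of a type and less RNA per cell cannot be told apart.

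The label of the population was checked first. A score of 50 HPC markers minus 50 pGM markers, both chosen from controls of the MLL-ENL (x2) set, ran from -2.18 to -1.17 in 7 of the pGM libraries. In the library labelled 73 pGM it was 3.55, among the values of HPC libraries (3.0 to 3.89), while in the library labelled 73 HPC it was -1.63. The plot of this score shows both libraries on the side of the other population. Mpo, the myeloperoxidase of neutrophil granules and a defining gene of pGM, stood at 2530 CPM in the library labelled 73 pGM and at 14000 to 23100 CPM in the other 7. The changes are therefore given with all 8 libraries and again without the libraries labelled 73.

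**Figure D1:**
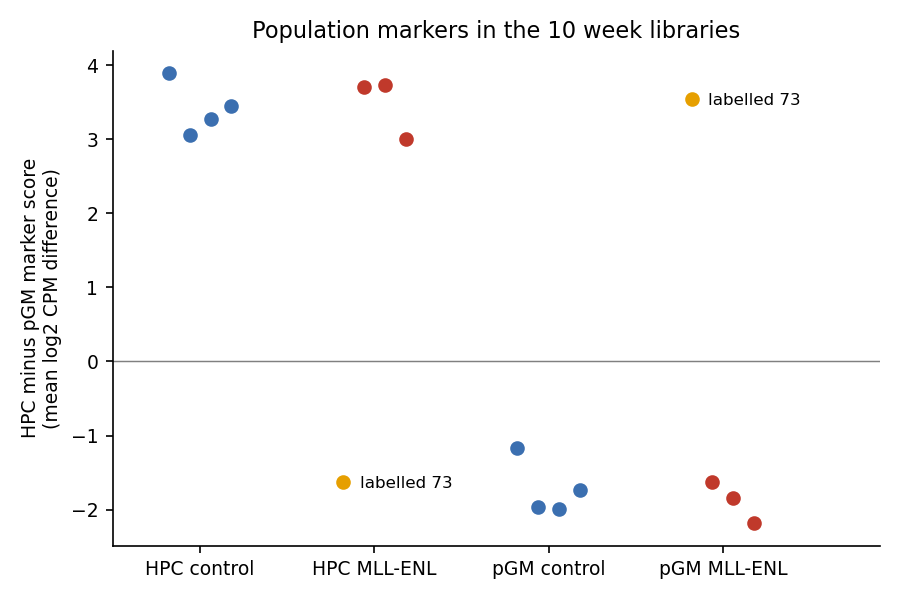
Score of HPC markers minus pGM markers (mean log2 CPM difference, vertical axis) in each 10 week HPC and pGM library, by label (horizontal axis; blue control, red MLL-ENL, orange the libraries labelled 73). The library labelled 73 pGM lies at 3.55 among HPC libraries, and that labelled 73 HPC at -1.63 among pGM libraries.

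Reads on the human transgene numbered 96, 22, 27 and 24 in the MLL-ENL pGM libraries 73, 74, 78 and 81, and 1, 0, 1 and 2 in the controls 76, 80, 87 and 88. Relative to mouse counts without TMM scaling these were 6.3, 1.58, 2.39 and 1.74 CPM against 0.0628, 0, 0.0674 and 0.104 CPM. The groups did not overlap, and the library labelled 73 pGM was the highest. The means were 3.0 ± 2.23 and 0.0587 ± 0.0433 CPM (SD, n = 4 each; 2-sided exact permutation p = 0.029, the smallest these groups allow). Without the library labelled 73 the MLL-ENL mean was 1.9 ± 0.429 CPM (n = 3; exact permutation p = 0.029, again the smallest possible). The mouse genes Kmt2a and Mllt1, counterparts of the fused human genes, were not called, with log2 fold changes of 0.09 ± 0.33 and -0.11 ± 0.26 (0.03 and -0.21 without the libraries labelled 73, adjusted p = 1 for all).

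With all 8 libraries 14 of 14899 genes tested were called (0.094%), 8 higher in MLL-ENL pGM (0.0537%) and 6 lower (0.0403%). Without the libraries labelled 73, 7 of 14876 were called (0.0471%), 3 higher (0.0202%) and 4 lower (0.0269%). The 5 genes called both ways were C1qtnf6, Klhl4, Ehd3, Il9r and Sva. Called only with all 8 were Cd14, Hnf4a, Mecom, Neb, Npdc1, Prdm16, Ptgir, Slc16a11 and Tnfsf13os, and called only without the libraries labelled 73 were Gng11 and Rftn2. The count of 14 fell to 8 without control 80 and to 9 without control 87. The plot of all genes sets both fits against each other: most genes lie near the diagonal, and a fringe below it rests on the library labelled 73.

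**Figure D2:**
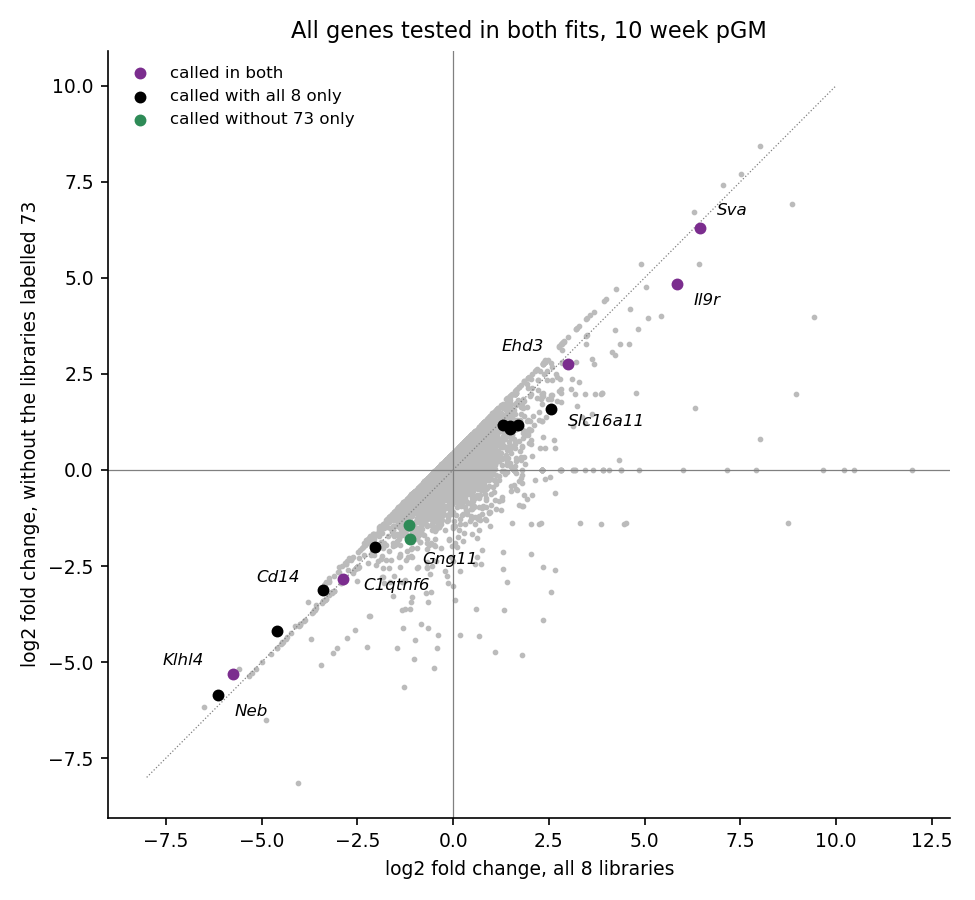
log2 fold change of each of the 14876 genes tested in both fits, with all 8 libraries (horizontal axis) and without the libraries labelled 73 (vertical axis); the dotted line marks equal values. Colored points are the 16 genes called in either fit, and the 5 called in both (purple) lie near the line.

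C1qtnf6 (ENSMUSG00000022440), which encodes a secreted C1q/TNF-related protein, had the smallest p of all genes. It stood at 22.5, 27.6, 29.7 and 33.5 CPM in the controls 76, 80, 87 and 88, and at 3.45, 3.05, 5.51 and 3.41 CPM in MLL-ENL 73, 74, 78 and 81. Every MLL-ENL library lay far below every control, and the library labelled 73 HPC, at 3.53 CPM, lay with them. The group means were 28.3 ± 4.6 CPM for controls and 3.86 ± 1.12 CPM for MLL-ENL (SD, n = 4 each). This is a log2 fold change of -2.88 ± 0.27 (adjusted p = 5.35e-09), and of -2.85 ± 0.30 without the libraries labelled 73 (adjusted p = 2.24e-07).

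Klhl4 (ENSMUSG00000025597), a member of the kelch-like family of adaptor proteins encoded on the X chromosome, was close to absent in MLL-ENL pGM. Controls held 4.82, 5.30, 6.77 and 4.44 CPM and MLL-ENL libraries 0, 0.071, 0.267 and 0.0697 CPM, which were 5 counts in all against 379 in controls. No library of either group came near the other group. The log2 fold change was -5.74 ± 0.71 (adjusted p = 2.19e-06), and -5.30 ± 0.68 without the libraries labelled 73 (adjusted p = 9.1e-06).

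Ehd3 (ENSMUSG00000024065), an ATPase of endocytic recycling, rose from 0.482, 1.22, 2.60 and 2.25 CPM in controls to 19, 13.5, 10.4 and 9.68 CPM. The lowest MLL-ENL library exceeded the highest control, and the library labelled 73 pGM was the highest. This gave a log2 fold change of 3.01 ± 0.52 with all libraries (adjusted p = 0.00235) and 2.76 ± 0.53 without those labelled 73 (adjusted p = 0.0151). In the latter comparison the call was lost when control 76, control 80 or MLL-ENL 74 was also left out, with adjusted p of at most 0.128.

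Il9r (ENSMUSG00000020279), the receptor subunit that binds interleukin 9, was nearly silent in controls at 0.301, 0, 0.205 and 0 CPM. MLL-ENL libraries held 17.6, 0.923, 5.42 and 4.18 CPM. The groups did not overlap, but MLL-ENL libraries spread widely, with 73 highest and 74 lowest. Its log2 fold change was 5.85 ± 0.79 (adjusted p = 1.74e-05), and 4.83 ± 0.70 without the libraries labelled 73 (adjusted p = 9.64e-05).

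Sva (ENSMUSG00000023289), a gene of a secreted protein of the seminal vesicle, was found at 2.54, 1.99, 2.31 and 1.04 CPM in MLL-ENL pGM and at 0, 0, 0 and 0.0511 CPM in controls. All 4 MLL-ENL libraries carried it and 3 of 4 controls had no read. The MLL-ENL libraries summed to 111 counts against 1 in controls, a ratio per mouse count of 145 with an exact 95% counting interval of 25.4 to 5770 (adjusted p = 2.05e-07). Without the library labelled 73 the ratio was 125 (21.7 to 5010; adjusted p = 1.87e-06). These intervals cover counting error only.

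Cd14, the co-receptor that presents bacterial lipopolysaccharide to Toll-like receptor 4, stood at 24.2, 25.9, 31.6 and 24.3 CPM in controls and at 0.969, 2.63, 2.75 and 3.69 CPM in MLL-ENL pGM. The groups lay well apart with and without the library labelled 73. On the log2 scale the change was -3.41 ± 0.70 (adjusted p = 0.0222). Without the libraries labelled 73 it was -3.13 ± 0.77, which was not called (adjusted p = 0.209). Of 13 alternatives to that fit 3 called it: the 7 compared libraries alone (5.53e-05), pooled controls of both sets (0.000169) and DESeq2 (0.0268). The other alternatives did not, namely RLE scaling, no filter, sex transcripts as a covariate and each further library left out. The call with all libraries was also lost when control 80, control 87, MLL-ENL 74 or MLL-ENL 78 was left out, with adjusted p of at most 0.254.

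Gng11 and Rftn2 were called only without the libraries labelled 73. Gng11, a gamma subunit of heterotrimeric G proteins, stood at 8.49, 9.14, 7.59 and 6.54 CPM in controls and at 3.19, 1.42 and 2.16 CPM in MLL-ENL 74, 78 and 81. The library labelled 73 pGM, at 7.51 CPM, lay among the controls, and that labelled 73 HPC, at 1.73 CPM, among the MLL-ENL pGM. The log2 fold change was -1.80 ± 0.33 without the libraries labelled 73 (adjusted p = 0.00785) and -1.14 ± 0.38 with them (adjusted p = 0.631). Leaving out MLL-ENL 78 or 81 as well, or fitting the 7 libraries alone, ended the call (adjusted p of at most 0.191).

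Rftn2, a raftlin-type protein of lipid rafts, showed the same arrangement, with 13.7, 12.1, 11.3 and 7.20 CPM in controls. MLL-ENL 74, 78 and 81 held 3.34, 4.18 and 4.74 CPM, and the library labelled 73 pGM 7.57 CPM, above control 88. Its log2 fold change was -1.44 ± 0.29 without the libraries labelled 73 (adjusted p = 0.0232) and -1.15 ± 0.27 with them (adjusted p = 0.0947). Leaving out control 76, 80 or 87 or any 1 of the 3 MLL-ENL libraries as well, or fitting the 7 libraries alone, ended the call (adjusted p of at most 0.523).

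For the other genes called as higher with all 8 libraries, the library labelled 73 pGM was again the highest, as it was for Ehd3, Il9r and Sva. These other genes were called only in the fit with that library, which favors genes where it is high. Mecom (Evi1), which encodes a zinc finger protein needed by blood stem cells, stood at 11.7, 10.3, 7.72 and 10.5 CPM in controls and at 61.8, 19.7, 26.8 and 22.4 CPM in MLL-ENL 73, 74, 78 and 81. The other 3 MLL-ENL libraries still exceeded every control. Mecom had a log2 fold change of 1.70 ± 0.35 (adjusted p = 0.0222), and 1.18 ± 0.29 without the libraries labelled 73 (adjusted p = 0.209). Mecom is also a gene of HPC, where controls averaged 38.5 ± 13.1 CPM against 10.1 ± 1.69 CPM in pGM controls (SD, n = 4 each).

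Hnf4a, a nuclear receptor best known from liver and gut, stood at 32.3, 17.9, 31.9 and 25 CPM in controls and at 133, 64.0, 47.6 and 56.5 CPM in MLL-ENL pGM. All MLL-ENL libraries exceeded all controls. Its log2 fold change of 1.49 ± 0.29 (adjusted p = 0.0133) became 1.06 ± 0.27 without the libraries labelled 73 (adjusted p = 0.209). HPC controls held 76.5 ± 22.7 CPM (SD, n = 4).

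Slc16a11, a transporter of the monocarboxylate family, stood at 6.75, 2.91, 6.49 and 4.39 CPM in controls and at 73.8, 17.3, 15.7 and 12.9 CPM in MLL-ENL pGM. The groups did not overlap, and the library labelled 73 stood far above the rest. The log2 fold change fell from 2.55 ± 0.52 (adjusted p = 0.0205) to 1.57 ± 0.45 without the libraries labelled 73 (adjusted p = 0.623). HPC controls held 21.9 ± 8.51 CPM (SD, n = 4).

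Ptgir, the receptor for prostacyclin, stood at 12.0, 9.47, 12.2 and 6.49 CPM in controls and at 46.2, 21.4, 23.5 and 21.4 CPM in MLL-ENL pGM. Here too no library overlapped. Its log2 fold change was 1.49 ± 0.29 (adjusted p = 0.0115), and 1.14 ± 0.28 without the libraries labelled 73 (adjusted p = 0.209). With all libraries, leaving out control 80 or 88 ended the calls of Mecom, Hnf4a, Slc16a11 and Ptgir, leaving out control 87 those of Mecom and Slc16a11, and leaving out control 76 that of Mecom. All 4 calls were also lost in a fit of the 8 libraries alone. Over these settings the adjusted p reached 0.558, 0.443, 0.786 and 0.322.

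Prdm16, Npdc1, Neb and Tnfsf13os complete the calls with all 8 libraries, and the first 3 are described here after their values were seen. Prdm16, a transcription factor of the same family as Mecom, stood at 7.65, 12.4, 5.88 and 9.14 CPM in controls and at 27.5, 25.5, 11.7 and 21.9 CPM in MLL-ENL pGM. MLL-ENL 78 lay below control 80, so the groups overlapped (log2 fold change 1.30 ± 0.25, adjusted p = 0.0115; 1.17 ± 0.27, adjusted p = 0.126 without the libraries labelled 73). Its call with all libraries was also lost without control 76, control 87 or MLL-ENL 74, with pooled controls of both sets and with the 8 libraries alone (adjusted p of at most 0.499).

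Tnfsf13os, named for its place opposite Tnfsf13, stood at 4.76, 4.55, 4.24 and 3.52 CPM in controls and at 0.908, 0.568, 1.87 and 0.836 CPM in MLL-ENL pGM, without overlap. The log2 fold change was -2.04 ± 0.39 (adjusted p = 0.0115), and -1.99 ± 0.43 without the libraries labelled 73 (adjusted p = 0.0831). The strand setting of the counts is not given, so its reads and those of the gene opposite may not be separable. Leaving out MLL-ENL 74 also ended its call, as did pooling the controls of both sets (adjusted p = 0.692) and fitting the 8 libraries alone (0.191). Among MLL-ENL (x2) set controls it stood at 0.384, 4.73, 0.31 and 3.89 CPM, so 2 of those 4 lay below every MLL-ENL library described here. Npdc1, a neural regulator of proliferation, had 76 counts in controls against 2 in MLL-ENL pGM, a ratio per mouse count of 29.2 (exact 95% counting interval 7.8 to 245; adjusted p = 0.0337), and of 21 without the libraries labelled 73 (5.61 to 176; adjusted p = 0.193). The call of Npdc1 was lost without control 80, 87 or 88 or any 1 MLL-ENL library, and with the 8 libraries alone (adjusted p of at most 0.282).

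Neb, the giant filament protein of muscle, rested on control 80 alone, at 48.5 CPM against 0 to 0.422 CPM in the other 7 libraries. Without control 80 its log2 fold change was 0.07 ± 1.14 (adjusted p = 1), against -6.14 ± 1.33 with it (adjusted p = 0.0403) and -5.85 with it but without the libraries labelled 73 (adjusted p = 0.218). The call was also lost without any 1 MLL-ENL library and with sex transcripts as a covariate.

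**Figure D3:**
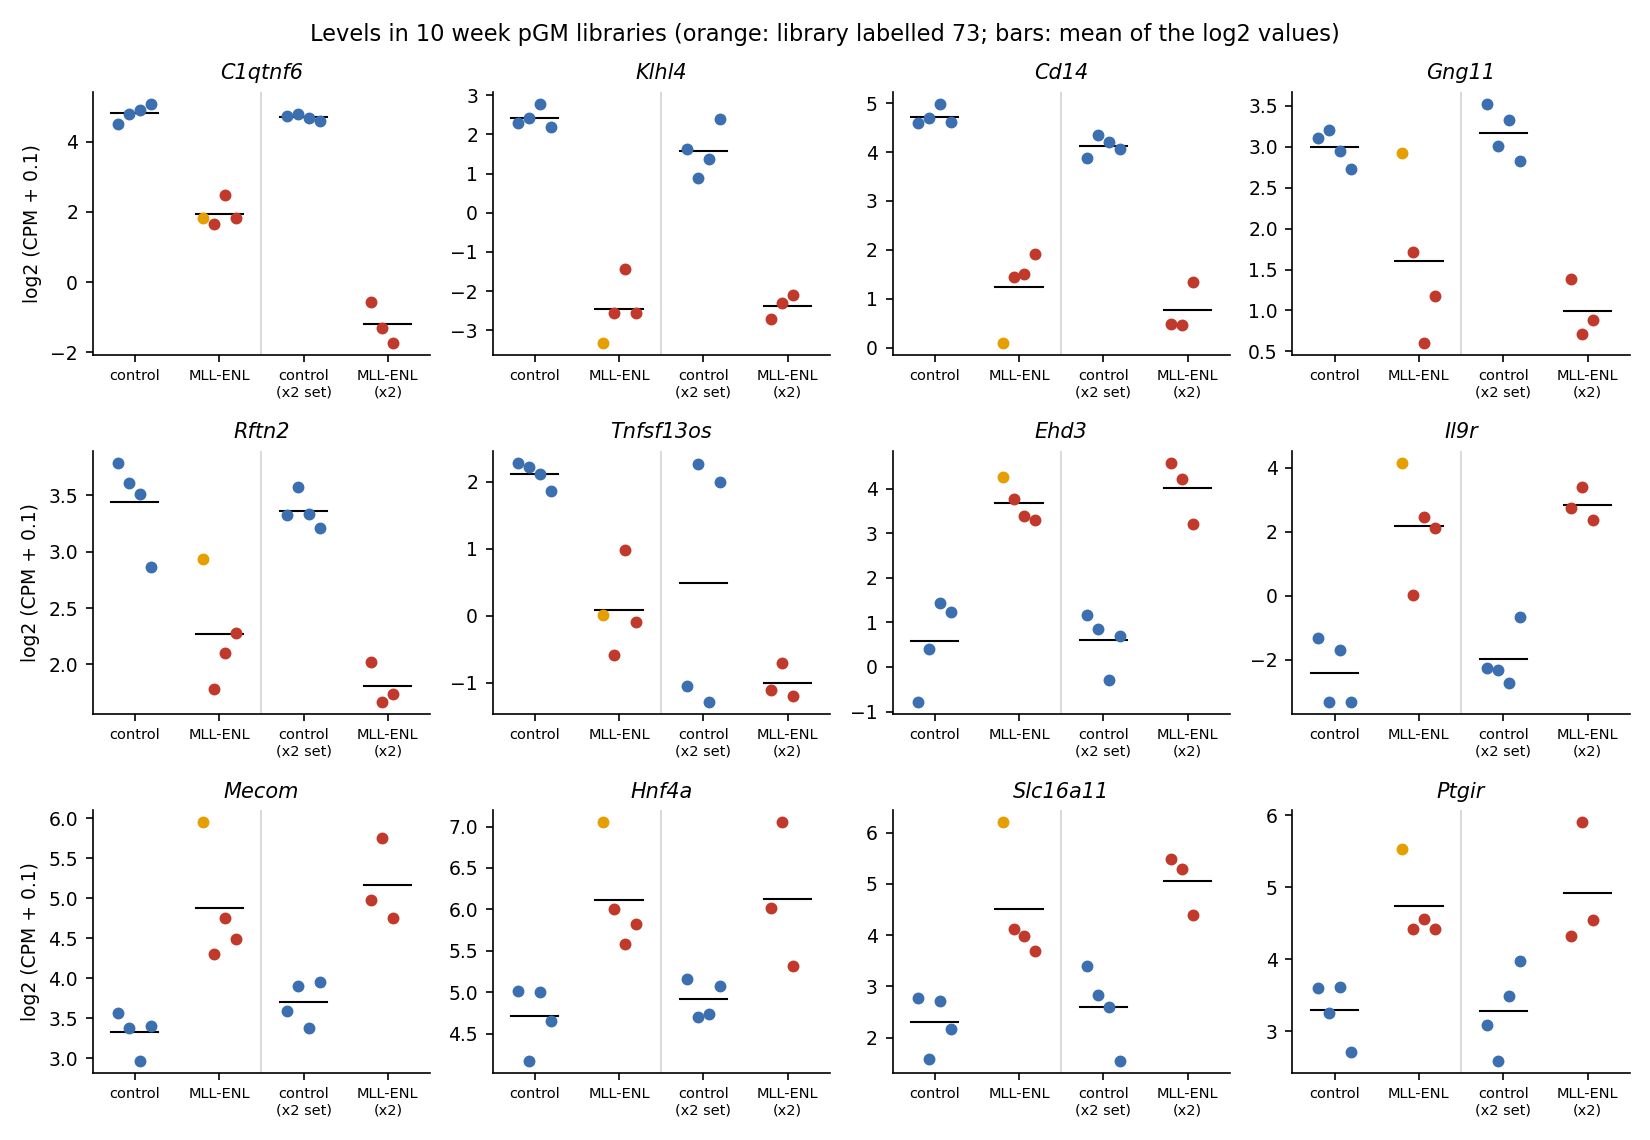
Level of 12 of the called genes as log2 (CPM + 0.1) in every 10 week pGM library, with the 8 libraries described here left of the grey line and those of the MLL-ENL (x2) set, scaled separately, right of it (blue control, red MLL-ENL, orange the library labelled 73 pGM; bars are means of the log2 values). The means of the first 6 genes (C1qtnf6 to Tnfsf13os) are lower and those of the last 6 (Ehd3 to Ptgir) higher in MLL-ENL libraries of both sets. Groups overlap within a set for the orange points of Gng11 and Rftn2, and for Tnfsf13os, where 2 controls of the MLL-ENL (x2) set lie at the level of its MLL-ENL (x2) libraries.

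Genes known as targets of MLL fusions showed few calls in 10 week pGM. Single members ranged from -1.54 to 2.8 on the log2 scale, and from -1.1 to 2.1 without the libraries labelled 73. On simulated data most 2-fold changes were missed, so the lack of a call does not show a lack of change. Of 22 measured members of a list of 26, Mecom was called with all 8 libraries and none without those labelled 73. Over all genes tested 0.094% and 0.0471% were called. Of the 22 members, 15 had a log2 fold change above 0 with all 8 libraries and 12 without those labelled 73. Over all genes tested 47.9% and 44.1% were above 0. The median log2 fold change of the list was 0.19, and 0.02 without the libraries labelled 73, against -0.01 and -0.02 over all genes tested. Hoxa9, the homeobox gene most tied to MLL leukemia, stood at 19.3, 19.1, 12.8 and 15.9 CPM in controls and at 45.8, 23.9, 24.0 and 19.1 CPM in MLL-ENL pGM. Libraries 74 and 78 lay above the highest control, while 81 lay among the controls, so the groups overlapped (log2 fold change 0.75 ± 0.22, adjusted p = 0.400; 0.40 ± 0.20, adjusted p = 1 without the libraries labelled 73). Meis1, the homeobox partner of Hoxa9, was at 296 to 348 CPM in controls and 274 to 560 CPM in MLL-ENL pGM, with overlap (log2 fold change 0.30, and 0.05 without the libraries labelled 73).

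Hoxa10 stood at 3.79, 2.39, 2.87 and 3.73 CPM in controls and at 19, 6.18, 5.69 and 5.36 CPM in MLL-ENL pGM. The groups did not overlap, yet the gene was not called (log2 fold change 1.51 ± 0.36, adjusted p = 0.105; 0.84 ± 0.26, adjusted p = 0.877 without the libraries labelled 73). Skida1, a frequent target of MLL fusions, reached 1.45, 0.213, 0.711 and 0.418 CPM in MLL-ENL pGM against 0, 0.281, 0 and 0.0511 CPM in controls. MLL-ENL 74 lay below control 80, and the log2 fold change of 2.80 ± 0.69 was not called (adjusted p = 0.123; 2.10, adjusted p = 1 without the libraries labelled 73). In newborn pGM the same gene stood at 14.3 ± 1.37 CPM in MLL-ENL (SD, n = 4) and at 0.805 ± 0.255 CPM in controls (n = 3).

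Gt(ROSA)26Sor, the transcript of a locus often used to carry transgenes, stood at 15.5, 12.7, 7.45 and 10.9 CPM in controls and at 32.9, 21.2, 18.1 and 16.6 CPM in MLL-ENL pGM. All MLL-ENL libraries exceeded all controls, but the log2 fold change of 0.93 ± 0.21 was not called (adjusted p = 0.0682; 0.68, adjusted p = 0.846 without the libraries labelled 73). The sources used here do not say whether these mice carry an insertion there.

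The same change was then looked for in pGM of the MLL-ENL (x2) set, which has its own controls and where 119 of 14260 genes were called (0.835%), 57 higher (0.4%) and 62 lower (0.435%). Of the 16 genes called here in either fit 15 were tested there, all 15 with the same sign, and 13 were called there too. That is 81.2% of the calls here and 11.2% of the 116 called there that were tested here. All 7 genes called without the libraries labelled 73 were among them. Read the other way, the 54 genes higher there had a median log2 fold change of 0.75 here without the libraries labelled 73, with 50 above 0, and the 62 lower there had a median of -0.51, with 57 below 0. Over all genes 44.1% were above 0 here without the libraries labelled 73. The share of all genes with the same sign in both sets is not given here.

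In that set the controls of C1qtnf6 matched those here, at 24.0 to 27.3 CPM, but the 3 MLL-ENL (x2) libraries held 0.202 to 0.572 CPM. The fall there of -6.10 ± 0.39 on the log2 scale (adjusted p = 5.52e-09) was larger than that here by 3.22 ± 0.37 (test of the difference, adjusted p = 0.00207; 3.26 ± 0.39, adjusted p = 0.00281 without the library labelled 73). Klhl4, Ehd3 and Il9r changed there by -4.93 ± 0.78, 3.49 ± 0.37 and 5.21 ± 0.77, and the differences from the changes here were not called. Sva was at 0 counts in the controls of the set and at 1.66 to 3.10 CPM in its MLL-ENL (x2) libraries. Cd14 fell there by 3.41 ± 0.33 on the log2 scale (adjusted p = 3.79e-06), Gng11 by 2.23 ± 0.28 and Rftn2 by 1.57 ± 0.20 (both adjusted p under 0.05).

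Prg2, the major basic protein of eosinophil granules, was the other gene whose change differed between the sets. Here it stood at 22, 38.8, 18.9 and 42.6 CPM in controls and at 73.7, 60.6, 189 and 76.8 CPM in MLL-ENL pGM. The groups did not overlap, but the spread was wide and the gene was not called (log2 fold change 1.70 ± 1.10, and 1.81 without the libraries labelled 73, adjusted p = 1 for both). In newborn pGM it stood at 8.89, 15.6 and 205 CPM in controls and at 6.7, 7.49, 21.5 and 13.7 CPM in MLL-ENL. In the MLL-ENL (x2) set it went from 144, 149, 22.6 and 41.2 CPM in controls to 0.871 to 6.29 CPM, a called fall of 4.60 ± 0.72 on the log2 scale. The difference of 6.31 ± 0.93 was called (adjusted p = 0.0244; 6.43, adjusted p = 0.0216 without the library labelled 73), and it was lost without control 76, 87 or 88, control 4894 of the other set, or MLL-ENL (x2) 5897 or 5900 (adjusted p of at most 0.11, with differences of 5.83 to 6.51).

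Prg2 makes up much of the summed level of the eosinophil list, which ran from 37.9 to 80.4 CPM in controls and from 93.4 to 255 CPM in the 4 MLL-ENL libraries. Summed over the other 9 members the groups overlapped, with 18.9 to 37.8 CPM in controls and 19.7, 33.2, 65.8 and 45.6 CPM in MLL-ENL 73, 74, 78 and 81. None of the 10 members was called. Of them 8 had a log2 fold change above 0, with a median of 1.2 (7 and 0.85 without the libraries labelled 73). Over all genes tested 47.9% and 44.1% were above 0. Siglecf and Ccr3, both surface receptors of eosinophils, lay at -0.50 and -0.77 with all libraries. Epx, the eosinophil peroxidase, was at 3.96 to 16.1 CPM in controls and 5.51 to 35.7 CPM in MLL-ENL pGM, and no member was at 0 in all 8 libraries. Whether these reads come from eosinophil precursors in the sorted cells was not tested.

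Pcdh7, a protocadherin of cell adhesion, was called in MLL-ENL (x2) pGM, newborn pGM and 10 week HPC, and not here. It stood at 3.01, 2.39, 2.39 and 2.35 CPM in controls and at 3.76, 2.63, 2.22 and 3.41 CPM in MLL-ENL pGM. The groups overlapped, with a log2 fold change of 0.25 ± 0.36 (0.12 ± 0.36 without the libraries labelled 73, adjusted p = 1 for both). In MLL-ENL (x2) pGM it rose by 2.43 ± 0.45 on the log2 scale, from 1.34 to 2.24 CPM in controls to 8.99 to 12.6 CPM. In newborn pGM it rose by 2.72 ± 0.39, from 5.55 ± 1.96 CPM (SD, n = 3) to 36.5 ± 8.38 CPM (n = 4).

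The difference of the change in Pcdh7 from that in newborn pGM was -2.62 ± 0.49 without the libraries labelled 73 (adjusted p = 0.0363) and -2.47 ± 0.52 with them (adjusted p = 0.138). From that in MLL-ENL (x2) pGM it was -2.30 ± 0.36 without the library labelled 73 (adjusted p = 0.0353) and -2.17 ± 0.35 with it (adjusted p = 0.0525). In 10 week HPC without 73 the gene rose by 2.77 ± 0.36, and the difference of -2.64 ± 0.51 was not called (adjusted p = 0.106). Tifab, an inhibitor of TRAF6 signalling, was likewise not called here (0.52 ± 0.31 without the libraries labelled 73) and rose by 1.77 ± 0.21 in MLL-ENL (x2) pGM and by 2.20 ± 0.32 in 10 week HPC. Its differences of -1.23 ± 0.26 and -1.68 ± 0.45 were not called (adjusted p = 0.211 and 1), but that from HPC was called with the library number as a replicate block (-1.67 ± 0.22, adjusted p = 0.0213). In pGM it stood at 194, 189, 311 and 257 CPM in controls 76, 80, 87 and 88 and at 331, 276 and 422 CPM in MLL-ENL 74, 78 and 81. In HPC it stood at 17.7 to 31.9 CPM in controls and at 99.2 to 122 CPM in those MLL-ENL numbers, so the groups overlapped in pGM and not in HPC.

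In newborn pGM 52 of 14899 genes were called (0.349%), 24 higher (0.161%) and 28 lower (0.188%). Of the 14 genes called here with all 8 libraries 6 were called there in the same direction, which is 42.9% of these and 11.5% of those. The sign was the same for 10 of the 14, again with no share over all genes beside it. Read the other way, without the libraries labelled 73, the 24 genes higher there had a median log2 fold change of 0.56 here, with 21 above 0. The 28 genes lower there had a median of -0.06, with 12 above 0 and 16 below, near that of all genes. C1qtnf6 fell there from 15.8 ± 5.92 CPM (SD, n = 3) to 4.33 ± 1.05 CPM (n = 4; log2 fold change -1.86 ± 0.28, adjusted p = 0.000137). The MLL-ENL means at both ages lay within each other's SD while the control mean was higher at 10 weeks, and the difference of the changes was not called (-1.02 ± 0.38, adjusted p = 1). Il9r and Mecom were higher there as well, by 3.51 ± 0.69 and 3.10 ± 0.43 on the log2 scale, as were Hnf4a, Slc16a11 and Sva.

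Klhl4 changed differently in newborn liver pGM and in 10 week marrow pGM, where age and tissue cannot be told apart. In newborn pGM it was at 0.716 ± 0.429 CPM in controls (SD, n = 3) and 2.38 ± 0.651 CPM in MLL-ENL (n = 4), a log2 fold change of 1.71 ± 0.59 that was not called (adjusted p = 0.397). The difference from the change at 10 weeks was -7.45 ± 0.94 (adjusted p = 1.4e-05), and -7.03 ± 0.87 without the libraries labelled 73 (adjusted p = 1.04e-05). Klhl4 was the only gene of 14899 with a called difference from newborn pGM (0.00671%). Without the libraries labelled 73, it and Pcdh7 were the 2 called among 14876 (0.0134%). Between the sets at 10 weeks the called differences were 2 of 13562 (0.0147%), C1qtnf6 and Prg2, and 3 of 13511 without the library labelled 73 (0.0222%), where Pcdh7 joined them.

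Against 10 week HPC of the same set, no difference of changes was called with edgeR (0 of 14899, and 0 of 14876 without the libraries labelled 73; 444 and 344 had an unadjusted p under 0.05). With the library number, shared by both populations, as a replicate block, 0 were called with all libraries and 3 of 13222 without those labelled 73. These 3, described after their values were seen, were Tifab and the immunoglobulin segments Iglv1 and Igkv6-17 (adjusted p = 0.0213 for each). Each segment, unlike Tifab, was above 1 CPM in only 1 of the 7 pGM libraries. HPC alone, without those libraries, had 26 calls of 14876 (0.175%). C1qtnf6 fell there by 2.02 ± 0.29 and Klhl4 by 4.26 ± 0.55 on the log2 scale, while Ehd3 rose by 2.51 ± 0.51 and Il9r by 7.0 ± 0.69. The differences of pGM minus HPC were -0.83 ± 0.39, -1.04 ± 0.89, 0.25 ± 0.72 and -2.17 ± 1.23 in that order (adjusted p = 1 for each).

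**Figure D4:**
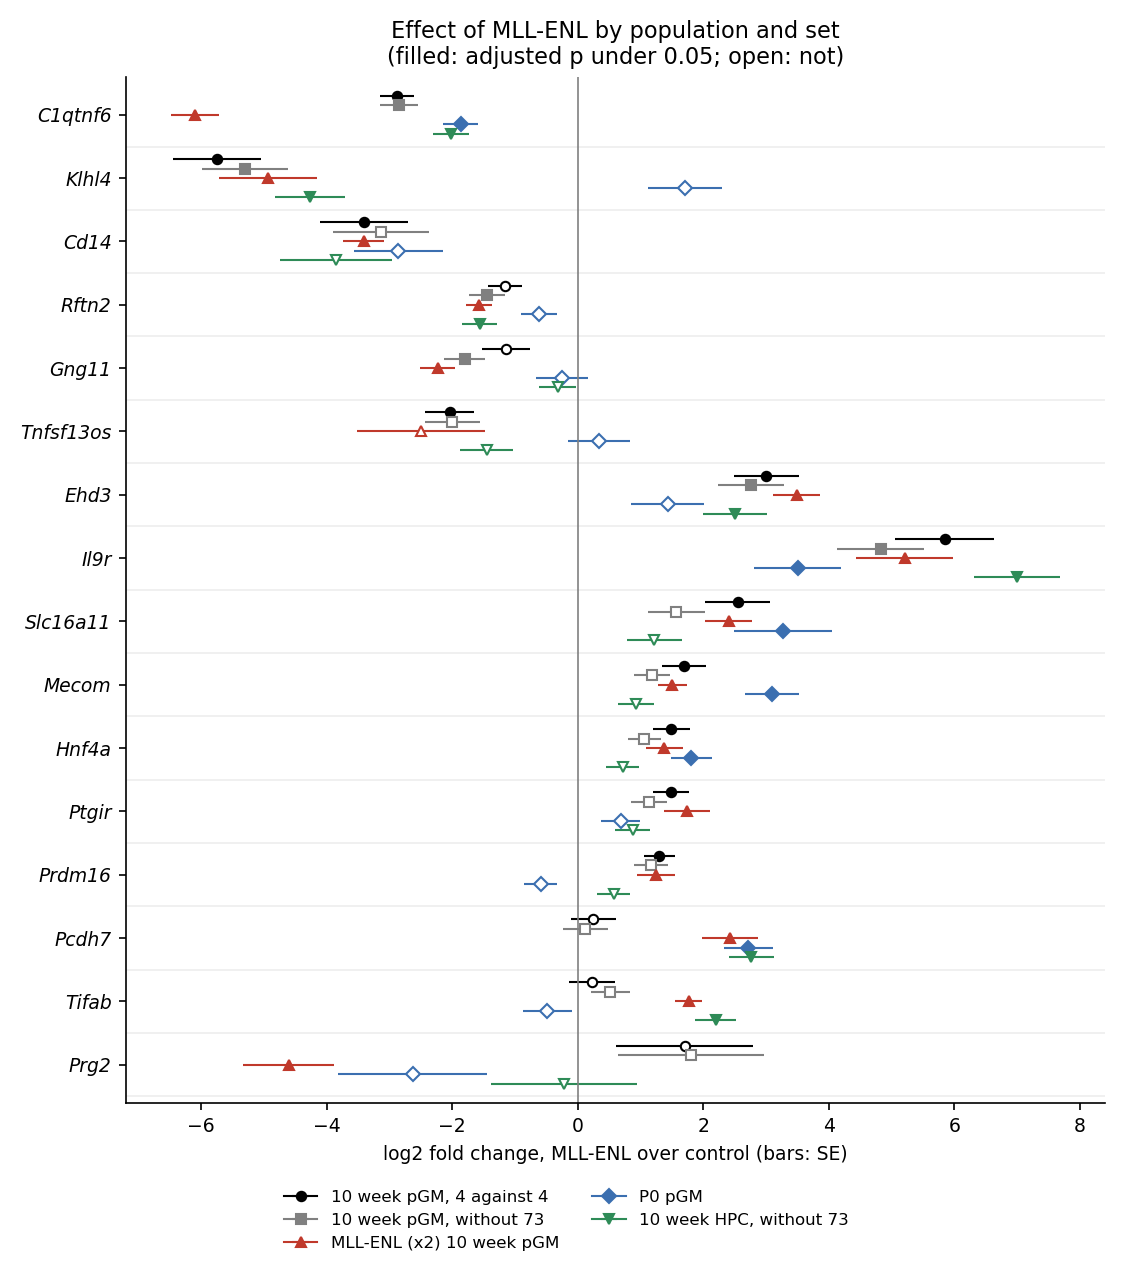
log2 fold change of MLL-ENL over control with its SE for 13 of the called genes and for Pcdh7, Tifab and Prg2, in 10 week pGM with all 8 libraries and without 73, in MLL-ENL (x2) pGM, P0 pGM and 10 week HPC without 73 (symbols; filled where the adjusted p is under 0.05). Klhl4 lies right of 0 only in P0 pGM, and Pcdh7 lies near 0 only in 10 week pGM.

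Of 30 gene lists that name pathways and cell types, few members were called, and several medians moved with the library labelled 73. The 23 measured stem and multipotent progenitor genes had a median log2 fold change of 0.30 with all 8 libraries and -0.12 without the libraries labelled 73. Of these 23 genes, 16 and 8 were above 0, against 47.9% and 44.1% of all genes tested. Monocyte and dendritic genes went the other way, from -0.32 to -0.08, and the neutrophil granule list, to which Mpo and Elane belong, from -0.18 to 0.04. The 29 measured type I interferon genes stood at 0.12 and -0.18, their summed level being 1390 CPM in the library labelled 73 pGM and 695 to 840 CPM in the other 7. Beside Mecom, Cd14, Il9r and Ptgir, no member of any list was called. Over all genes tested 0.094% were called with all 8 libraries and 0.0471% without the libraries labelled 73. The lists hold genes that earlier results had named, so these shares do not tell whether the lists hold few or many calls.

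The median kept its sign with and without the libraries labelled 73 in 19 of the 30 lists, changed sign in 10 and came to 0 in 1 fit for the last list. Megakaryocyte genes had a median of -0.53 and -0.43, with 3 and 2 of 17 above 0, against 47.9% and 44.1% of all genes tested. Among them Mmrn1, an adhesive protein of platelet granules, stood at 16.4, 13.7, 13 and 5.26 CPM in controls and 5.45, 3.98, 3.55 and 3.48 CPM in MLL-ENL pGM, and was not called (adjusted p = 0.314, and 0.450 without the libraries labelled 73). Lymphoid priming genes had medians of -0.16 and -0.55, with 8 and 2 of 20 above 0 and no call. Ebf1, a B cell transcription factor of that list, was at 54.6 and 54.3 CPM in controls 76 and 80 and at 14 and 11.3 CPM in controls 87 and 88, a split within the controls that spanned MLL-ENL 74, 78 and 81. Genes of mitosis, DNA replication, ribosome biogenesis, oxidative phosphorylation, glycolysis and the p53 response all had medians between -0.10 and 0.06.

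**Figure D5:**
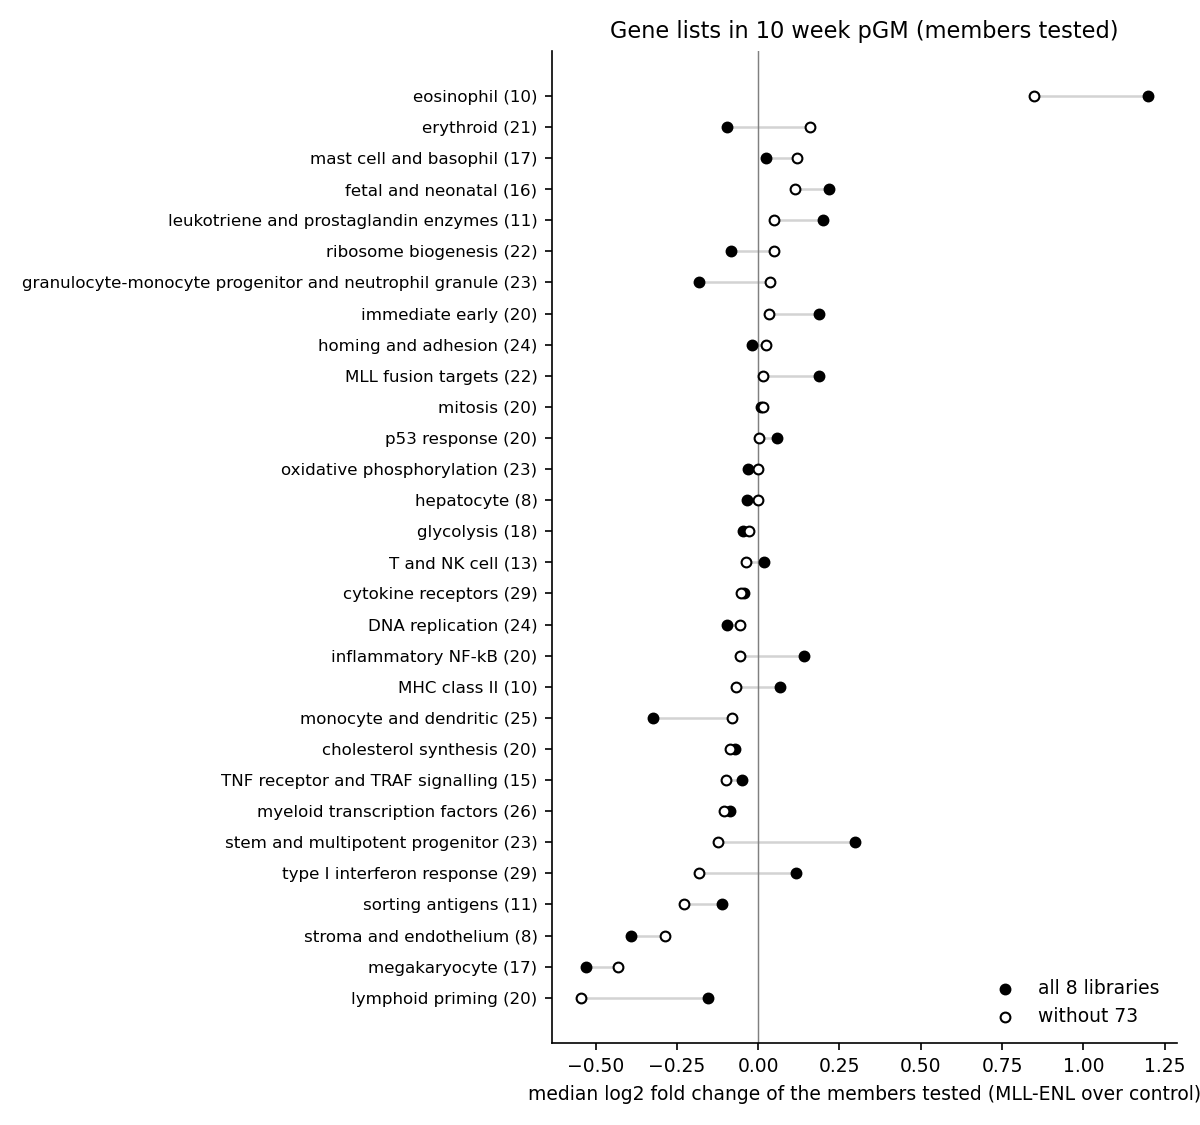
Median log2 fold change of MLL-ENL over control (horizontal axis) of the tested members of each of 30 gene lists in 10 week pGM (vertical axis; number tested in brackets), with all 8 libraries (filled) and without the libraries labelled 73 (open). Most lists lie near 0, the eosinophil list lies at 1.2 and 0.85, and stem and interferon lists change side with the library labelled 73.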

How the data were processed

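Per the labels' protocols, RNA of sorted progenitors came from Qiagen micro plus columns and was made into libraries by Clontech chemistry. The authors deposited raw read counts per Ensembl gene for 84 libraries, made with STAR (3.0.4), Subread (version not given) and featureCounts (1.4.5), per the submitters' processing notes. The sources used here give no genome build, gene annotation or strand setting for the counts. Symbols came from a gene name table, with a match for 40254 of 41388 mouse identifiers. Which 10 week controls belong to which set was taken from the form of the library identifiers.

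Counts were tested with edgeR 4.0.16 in R 4.3.3 (TMM scaling, filterByExpr, quasi-likelihood F test, 1 mean per group, Benjamini-Hochberg adjustment, FDR 0.05). The main fit held 47 libraries at P0 and 10 weeks, a second one 45 without 73P and 73H, and another one the 21 of the MLL-ENL (x2) set. The common biological coefficient of variation was 0.297, 0.282 and 0.268. Differences of changes were contrasts of 4 groups, those between the sets in 15 and 14 pGM libraries. Library numbers shared by HPC and pGM were checked as pairs: without the libraries labelled 73, deviations of same-numbered libraries from their group means correlated at 0.188 to 0.304 in controls and 0.18 to 0.256 in MLL-ENL, and higher than with any other number. With them, number 73 gave -0.496. The labels do not state that a number is 1 mouse. The transgene was compared by exact permutation. Members, gene lists and comparisons were chosen with earlier results of these data known, and the lists hold genes that those results had named. Named genes were up to 15 per direction past FDR in either fit, with a symbol, a mean log2 CPM of at least 1 and no overlap between the groups, up to 4 called members of each list (or some with the smallest p), genes named by earlier work on these data, genes of called differences, and Xist and Ddx3y. On simulated data with all 8 libraries the test found 37% of the 2-fold changes, 73% of the 4-fold changes and 4 unchanged genes. Without the libraries labelled 73 it found 43%, 66% and 5. Both simulations took their spread from the fit of 47 libraries, which holds those labelled 73, so the second is not matched to the fit without them. Alternatives were RLE scaling, no filter, DESeq2 1.42.0, the compared libraries alone, pooled controls of both sets, sex transcripts as a covariate, a replicate block, FDR 0.10 and each library left out. Tables and plots were made with pandas 2.3.3, matplotlib 3.10.9 and scipy 1.17.1 in Python 3.11.15.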

Additional observations from a re-analysis of the deposited data

Results flagged for a closer look

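Among groups of 4 libraries, single libraries stood apart from the others of their group for 8 genes by Dixon's test at the 95% level, out of 60 groups tested. Chance alone marks about 1 in 20 groups when genes are taken without regard to their values. The groups tested were those of genes named here. Mecom, Slc16a11, Ptgir and Neb were called in the main fits only with the library that stood apart, so 8 of 60 cannot be set against that share. Of these, 4 were the library labelled 73 pGM, with Mecom at 61.8 CPM, Slc16a11 at 73.8 CPM, Ptgir at 46.2 CPM and Hoxa10 at 19 CPM, each the highest of the MLL-ENL group. MLL-ENL 78 stood above its group for C1qtnf6, at 5.51 CPM, and for Prg2, at 189 CPM. Among controls, 80 stood above its group for Neb, at 48.5 CPM, and 76 for Pcdh7, at 3.01 CPM.

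The change of Klhl4 at 10 weeks differed from that in newborn pGM by -7.45 on the log2 scale. The changes of C1qtnf6 and Prg2 differed between the sets at 10 weeks, by 3.22 and 6.31 in MLL-ENL over control here minus that in MLL-ENL (x2). Each of these differences passed FDR 0.05 in edgeR over all genes.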

How the results depend on the processing

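C1qtnf6, Klhl4 and Sva stayed past FDR 0.05 in all 14 alternatives with all 8 libraries and in all 13 without the libraries labelled 73. Ehd3 and Il9r did so in 13 of 14 with all 8 libraries, failing in the fit of the 8 compared libraries alone (adjusted p = 0.0522 and 0.191). Without the libraries labelled 73, Ehd3 did so in 10 of 13, failing without control 76, control 80 or MLL-ENL 74, and Il9r in 12 of 13, failing in the fit of the 7 compared libraries alone (adjusted p = 0.0765). With all 8 libraries the count of 14 became 22 at FDR 0.10, 40 with DESeq2, 5 with the compared libraries alone and 6 without MLL-ENL 73 pGM alone. Leaving out 1 library gave 6 to 15. Without the libraries labelled 73 the count of 7 became 22 with DESeq2 and 20 with pooled controls, and 5 to 8 with 1 further library left out. Neb turned to 0.0717 without control 80, with a range from -6.67 to that value with 1 library left out.

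Differences from newborn pGM numbered 2 at FDR 0.10, 2 without both libraries labelled 73, 2 with a replicate block on the P0 number (Prdm16 joined Klhl4), and 1 to 2 with 1 library left out. Differences from MLL-ENL (x2) pGM numbered 6 at FDR 0.10 and 1 to 3 with 1 library left out. Differences from HPC numbered 0 to 1 with 1 library left out, and 3 with the library number as a replicate block and both libraries labelled 73 left out. With both libraries labelled 73 kept, that block gave 0. No paired analysis was possible for MLL-ENL against control in 10 week pGM because the groups share no numbers. The transgene difference of 2.94 CPM ran from 1.85 to 3.42 CPM with 1 library left out, and lost p under 0.05 without any 1 control (exact permutation p = 0.057 to 0.086). Where these values moved, the cause was not tested. Small groups limit what could be detected: on simulated data most genes changed 2-fold were missed.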
